A study of Caenorhabditis elegans with 12 samples.

Results

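The col- genes are the numbered collagen genes of Caenorhabditis elegans, and they were chosen here by name alone: every gene whose WormBase symbol is col- followed by a number. The egg expression table held 153 of them among 25122 genes, and 3 further col- symbols, col-35, col-102 and col-185, were not analysed here. All 153 are annotated as protein coding, with coding lengths between 462 and 2220 bases (median 912 bases).

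Most col- genes encode cuticle collagens. These are small secreted proteins of the epidermis whose Gly-X-Y repeats wind into a triple helix, are hydroxylated and cut in the secretory pathway, and are cross-linked outside the cell. The cuticle is made for the first time late in embryogenesis, after the embryo elongates, and is made again at each moult, and successive cuticles use overlapping but different sets of collagens. Classic examples are col-19 and col-7 of the adult cuticle and col-2 of the dauer larva. Reduced insulin/IGF-1 signaling through the receptor DAF-2 is known to act on collagen genes by way of stress-response transcription factors, and col-10, col-120 and col-144 have been tied to the long life of daf-2 animals.

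The libraries came from 3 genotypes with 4 replicates each: daf-16;daf-2;bcl-11, daf-2;bcl-11 and daf-2 alone. The daf-2 allele was e1370 in all of them, which reduces the function of the insulin/IGF-1 receptor, so no wild-type eggs enter these comparisons. The bcl-11 allele was bon125, a hypomorph of a gene for a zinc finger transcription factor. The daf-16 allele was mu86, a deletion in the gene for the FOXO factor that acts downstream of DAF-2. Worms were grown at 20°C, eggs were released by bleaching, and RNA was extracted after a further 2 h at 27°C. The study asked how bcl-11 mutation alters the response of daf-2 eggs to warmth, and whether loss of daf-16 alters it further. All 12 libraries came from warmed eggs, so the comparisons give differences between genotypes and cannot measure a response to warmth. Values are regularised log2 counts (rlog), a scale that shrinks the differences of weakly expressed genes. Counts per library were not used here and the depth is unknown, so no counting interval can be given.

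Transcripts of the targeted genes were checked before any collagen. daf-16 stood at 9.65, 9.77, 9.90 and 9.58 in the daf-16;daf-2;bcl-11 eggs, at 9.51, 9.61, 9.50 and 9.46 in eggs labelled daf-2;bcl-11, and at 12.14, 12.32, 12.03 and 11.98 in daf-2 eggs. The daf-2;bcl-11 label gives no daf-16 allele, yet daf-16 transcript was as low in those 4 libraries as in the daf-16(mu86) libraries. They are therefore called "labelled daf-2;bcl-11" throughout, and whether their differences from daf-2 eggs belong to bcl-11 or daf-16 cannot be told apart here. bcl-11 itself averaged 9.10 ± 0.72 in the daf-16;daf-2;bcl-11 eggs, 9.28 ± 0.18 in eggs labelled daf-2;bcl-11, against 10.15 ± 0.37 in daf-2 eggs (SD, n = 4 each), and daf-2 was between 9.77 and 10.34 in all 12 libraries.

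Bulk eggs are a mixture of embryos of different ages, and stage markers also differed between the genotypes. Of 16 maternal and early embryonic markers, 2 rose in the daf-16;daf-2;bcl-11 eggs and 14 rose in eggs labelled daf-2;bcl-11, each against daf-2 eggs. Their mean level over a library ran from 10.89 to 12.57 in the daf-16;daf-2;bcl-11 eggs, from 11.86 to 12.44 in eggs labelled daf-2;bcl-11 and from 10.22 to 11.68 in daf-2 eggs. Of 8 early zygotic markers, 1 rose in the daf-16;daf-2;bcl-11 eggs and 7 in eggs labelled daf-2;bcl-11. Of 13 late embryonic markers, 7 fell in each comparison, and they were unlike by tissue. All 6 muscle genes (myo-1, myo-2, myo-3, unc-54, unc-15 and lev-11) fell, with log2 fold changes from -1.76 to -0.97 in the daf-16;daf-2;bcl-11 eggs and from -1.25 to -0.96 in eggs labelled daf-2;bcl-11. Of the 7 genes of the apical extracellular matrix, lpr-3 alone fell (-0.63 and -0.73), and noah-1, noah-2, sym-1, fbn-1, let-653 and mlt-11 ran from -0.27 to 0.51 and from -0.39 to 0.21 without passing. The mean level of the 13 ran from 13.39 to 14.30 in the daf-16;daf-2;bcl-11 eggs, from 13.77 to 13.93 in eggs labelled daf-2;bcl-11 and from 14.19 to 14.59 in daf-2 eggs. These counts moved with the fit, and shares of all genes under the alternatives are not given here. With the replicate number as a block, 6 maternal markers rose in the daf-16;daf-2;bcl-11 eggs. After median centring of each library, 15 and 16 maternal and 3 and 8 early zygotic markers rose in the same order of comparisons, while 4 late markers fell in each and 5 and 2 rose. With replicate 3 of both daf-2 and labelled daf-2;bcl-11 eggs left out, 0 and 6 maternal and 0 and 1 early zygotic markers rose, and 7 late markers fell in each. No vitellogenin gene, the yolk protein markers of the adult intestine, passed the test, at 0 of 6 in either comparison, though after centring 2 rose in the daf-16;daf-2;bcl-11 eggs. What part stage had in the collagen results below was not tested, and fewer epidermal cells in a sample cannot be told apart from less collagen RNA per cell.

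A collagen gene was taken as on in a genotype when its mean over 4 libraries was above log2(10), or 3.32. By this rule 123 were on in the daf-16;daf-2;bcl-11 eggs, 122 in eggs labelled daf-2;bcl-11, against 134 in daf-2 eggs. In all, 135 of 153 were on in at least 1 genotype, 120 of them in all 3, and 18 in none. Over all 25122 genes, 17202 were on in at least 1 genotype, and their counts by genotype are not given here. The 10 that were on in daf-2 eggs alone were col-36, col-49, col-96, col-116, col-129, col-133, col-142, col-178, col-183 and col-184, and col-140 was the only one on in the daf-16;daf-2;bcl-11 eggs alone, with a mean of 3.36. Several of these lay close to the line: just above it were col-178 (mean 3.34 in daf-2 eggs) and col-129 (3.36 in daf-2 eggs), and just below it col-163 (3.32 in the daf-16;daf-2;bcl-11 eggs), col-47 (3.20 in daf-2 eggs) and col-143 (3.13 in daf-2 eggs). The 18 that were not on included the adult collagen col-19, whose means were 1.92 in the daf-16;daf-2;bcl-11 eggs, 2.00 in eggs labelled daf-2;bcl-11, against 2.10 in daf-2 eggs, near the bottom of the table. The adult collagen genes were thus not all silent, because col-7 was on in every genotype.

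The most abundant col- gene by its mean over the 12 libraries was col-74. Its values were 15.77, 15.27, 16.06 and 16.28 in the daf-16;daf-2;bcl-11 eggs, 16.83, 16.04, 16.41 and 16.39 in eggs labelled daf-2;bcl-11, against 16.86, 17.46, 17.07 and 17.50 in daf-2 eggs. No library of the other genotypes reached the lowest daf-2 library. After correction for transcript length (the mean rlog value minus log2 of the longest transcript in kilobases), col-74 was still first at 15.8, followed by col-165 at 14.7, col-121 at 13.9, and col-76 and col-107 at 13.3 each. col-74, col-121 and col-107 overlap a gene on the other strand (gtap-1, daf-15 and C34H4.5), and the libraries do not record strand, so part of their signal could come from those genes. In all, 64 members overlap a gene on the other strand, 55 of them among the 135 that were on.

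In eggs labelled daf-2;bcl-11, every col- gene that passed the test was lower, though this depended on the scaling of the libraries, as given below. Compared with daf-2 eggs, 0 of 153 rose and 68 fell, which is 44.4% of the members (limma, Benjamini-Hochberg adjusted p under 0.05 over all genes and a change of more than 1.5-fold). Over all 25122 genes the same rule called 7.0% higher and 15% lower. All 68 were among the 135 that were on, of which they made up 50.4%. Of the 135, 10 passed the on rule through daf-2 eggs alone, and 5 of these 10 were called lower. The median log2 fold change of the 153 was -0.81, against -0.02 over all genes, and the members ran from -4.71 to 0.57. Without the fold and adjustment rules, 1 member was higher and 87 were lower at an unadjusted p under 0.05, against 17.1% and 22.4% of all genes, or 39.5% in either direction.

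In the daf-16;daf-2;bcl-11 eggs, set against daf-2 eggs, the split was of the same kind: 0 of 153 rose and 76 fell, or 49.7% of the members, where 6.38% of all genes were called higher and 16.2% lower. The 76 were 56.3% of the collagens that were on, and they held 5 of the 10 that were on in daf-2 eggs alone. Here the median log2 fold change was -1.02, against -0.01 over all genes, and the members ran from -3.93 to 0.60. At an unadjusted p under 0.05, 2 members were higher and 94 were lower, where 40.5% of all genes passed in either direction. The 4 daf-2 libraries serve in both comparisons, so the comparisons are not independent of each other.

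The absence of raised members depended on how the libraries were scaled. When each library was centred on its own median, the median of all genes moved to 0.52 in the daf-16;daf-2;bcl-11 eggs and to 0.41 in eggs labelled daf-2;bcl-11, both against daf-2 eggs. On that scale 16 members were called higher and 57 lower in the daf-16;daf-2;bcl-11 eggs, and 7 higher and 46 lower in eggs labelled daf-2;bcl-11. The shares of all genes called on that scale are not given here, so these counts cannot be read against a background. The medians of the 153 stayed negative, at -0.49 and -0.38. The members called higher there included the dauer collagen col-2, and also col-9, col-45, col-55, col-135 and col-163, in both comparisons. Of these, col-55 and col-163 were on in no genotype.

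**Figure D1:**
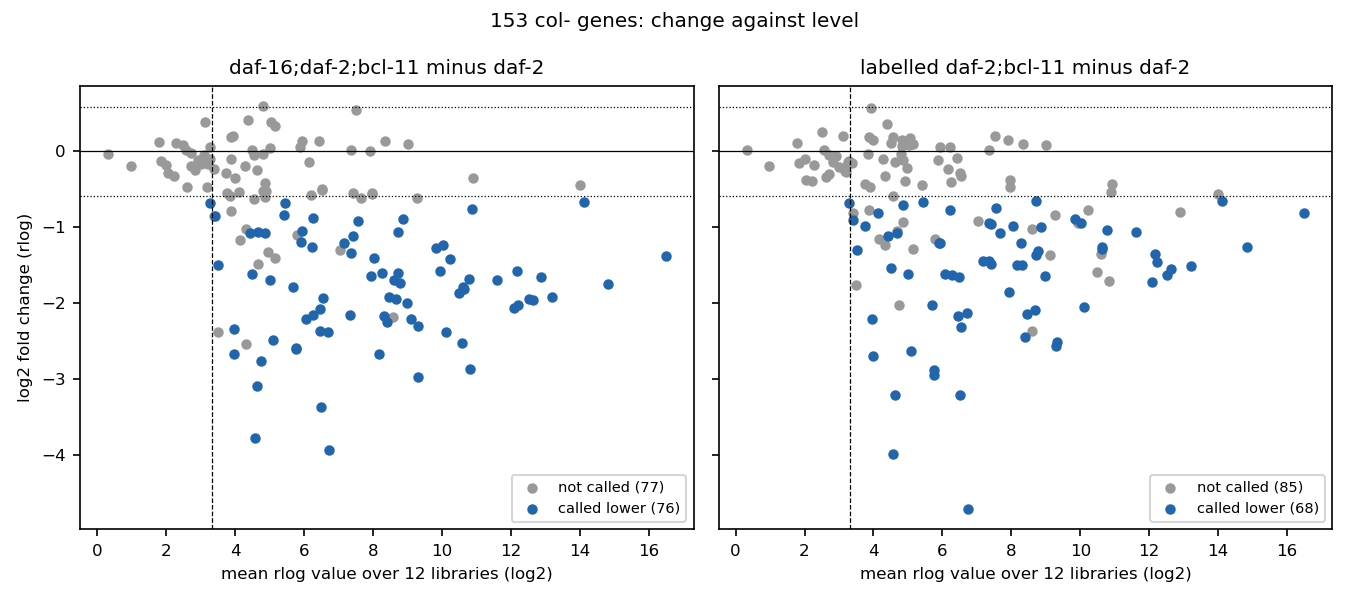
Each point is 1 of the 153 col- genes, placed by its mean rlog value over 12 libraries (x axis, log2) and its log2 fold change against daf-2 eggs (y axis), for daf-16;daf-2;bcl-11 eggs on the left and eggs labelled daf-2;bcl-11 on the right. Dotted lines mark a fold of 1.5 in either direction and the dashed line log2(10). Blue points passed the test; they number 76 and 68, all lie below 0, and they run along the whole range of levels above the dashed line.

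Lowered members were found at every level of expression above the on line. Of the 11 members with a mean above 12, 10 fell in the daf-16;daf-2;bcl-11 eggs and 9 fell in eggs labelled daf-2;bcl-11. Among all 3580 genes at that level, 5.14% and 5.78% were called lower in these comparisons and 21.3% and 18.5% were called higher, so the abundant collagens ran against the direction of other abundant genes. Of the 19 members between 9 and 12, 16 and 9 fell, where 21.0% and 21.1% of all genes did. Between 6 and 9, 29 of 44 fell in each comparison, where 40.8% and 36.5% of all genes did. Between log2(10) and 6, 20 of 56 fell in each, where 24.6% and 21.3% of all genes did. The median log2 fold change of the members above 12 was -1.75 in the daf-16;daf-2;bcl-11 eggs and -1.35 in eggs labelled daf-2;bcl-11, lower than in any other of these bands. Only 1 of the 23 members with a mean below log2(10) fell, col-96.

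Collagen levels also separated the genotypes library by library. The median over the 153 members was 5.33, 5.28, 5.76 and 5.27 in the daf-16;daf-2;bcl-11 eggs, 5.58, 5.35, 5.56 and 5.62 in eggs labelled daf-2;bcl-11, against 6.65, 6.42, 7.06 and 6.71 in daf-2 eggs. Every daf-2 library lay above the other 8. The median over all genes was also higher in daf-2 libraries, between 6.36 and 6.50, against 5.77 to 6.01 in the other 8 libraries. In 68 members all 4 daf-16;daf-2;bcl-11 libraries lay below all 4 daf-2 libraries (44.4%, against 16.3% of all genes), and in 76 members every library labelled daf-2;bcl-11 did (49.7%, against 18.7% of all genes). Set side by side within each batch, the label that pairs libraries by replicate number, 81 members were lower in the daf-16;daf-2;bcl-11 eggs in 4 of 4 batches and 85 were lower in eggs labelled daf-2;bcl-11, where 22.6% and 24.2% of all genes were.

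**Figure D2:**
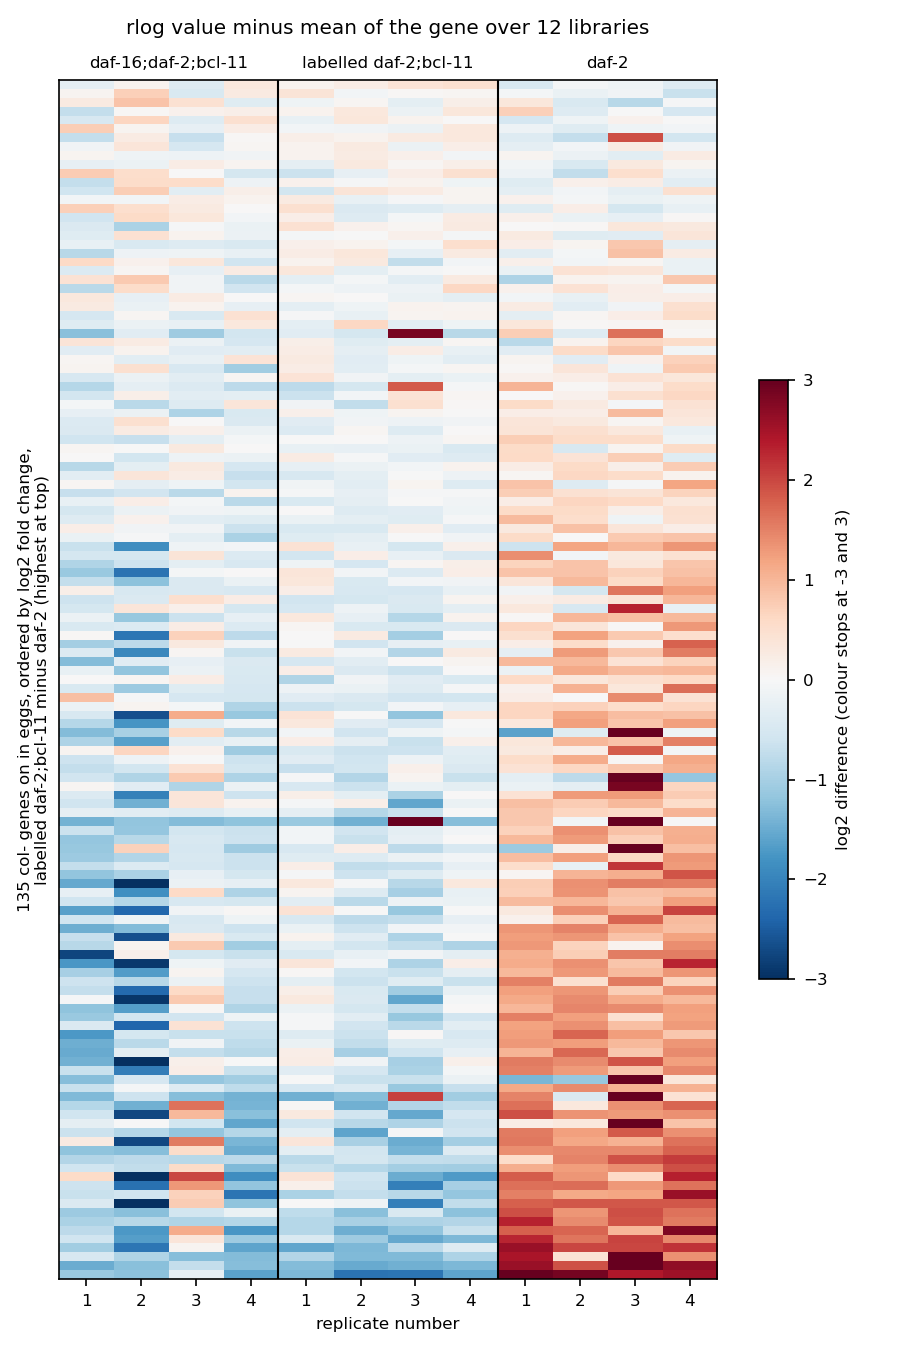
Rows are the 135 col- genes that were on, ordered by log2 fold change in eggs labelled daf-2;bcl-11 relative to daf-2 eggs, and columns are the 12 libraries by genotype and replicate number. Colour is the rlog value minus the gene's mean over 12 libraries (log2, colour stopped at -3 and 3). The 4 daf-2 columns are red and the other 8 blue over the lower part of the map, and single dark cells mark genes that were high in replicate 3 of daf-2 or of labelled daf-2;bcl-11, or low in daf-16;daf-2;bcl-11 replicate 2.

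The largest decrease in both comparisons was that of col-146 (WBGene00000719; WBcel235 chromosome V, 9629943 to 9631012). It stood at 5.61, 5.50, 6.50 and 5.14 in the daf-16;daf-2;bcl-11 eggs, at 5.38, 4.52, 4.55 and 5.16 in eggs labelled daf-2;bcl-11, and at 10.43, 9.61, 9.13 and 9.29 in daf-2 eggs. The highest of the other 8 libraries, at 6.50, lay below the lowest daf-2 library, at 9.13. Its log2 fold change was -3.93 ± 0.33 (SE, adjusted p = 2.9e-06 by limma), or 15.2-fold lower, in the daf-16;daf-2;bcl-11 eggs and -4.71 ± 0.33 (adjusted p = 7.0e-07), or 26.2-fold lower, in eggs labelled daf-2;bcl-11. The next col- gene on the chromosome, col-147, had a wider spread, at 9.16, 5.21, 10.59 and 6.72 in the daf-16;daf-2;bcl-11 eggs, 8.99, 7.98, 7.11 and 6.88 in eggs labelled daf-2;bcl-11, against 10.41, 9.90, 9.18 and 10.92 in daf-2 eggs. Its log2 fold changes of -2.18 and -2.36 did not pass the test (adjusted p = 0.075 and 0.057, limma).

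col-108 (chromosome IV, 1768588 to 1769702) was close to the on line outside daf-2 eggs. Its values were 3.10, 3.33, 3.86 and 3.29 in the daf-16;daf-2;bcl-11 eggs, 3.27, 3.07, 3.14 and 3.24 in eggs labelled daf-2;bcl-11, against 7.18, 6.48, 7.77 and 7.23 in daf-2 eggs. That made it 13.6-fold and 15.8-fold lower, with log2 fold changes of -3.77 ± 0.24 and -3.98 ± 0.24 (SE, adjusted p = 2.4e-07 and 1.4e-07, limma). col-183 on chromosome X behaved alike at a lower level. It was between 3.02 and 3.15 in the daf-16;daf-2;bcl-11 eggs and between 3.00 and 3.11 in eggs labelled daf-2;bcl-11, against 6.27, 5.39, 5.86 and 5.53 in daf-2 eggs. Both genes were thus at or near the bottom of their range in 8 libraries and clearly expressed in 4.

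Other members with large decreases covered a range of levels. col-13 stood at 5.17, 4.11, 6.14 and 4.70 in the daf-16;daf-2;bcl-11 eggs, 5.32, 4.70, 4.23 and 4.42 in eggs labelled daf-2;bcl-11, against 8.05, 7.37, 7.81 and 7.22 in daf-2 eggs (log2 fold changes -2.59 and -2.95). Its neighbour col-12, which is more abundant, was at 8.86, 5.66, 10.06 and 8.10 in the daf-16;daf-2;bcl-11 eggs, 9.32, 9.18, 7.26 and 8.57 in eggs labelled daf-2;bcl-11, against 11.10, 11.15, 11.16 and 11.17 in daf-2 eggs (log2 fold changes -2.98 and -2.57). The daf-2 libraries lay close together for col-12, between 11.10 and 11.17, whereas the daf-16;daf-2;bcl-11 libraries ran from 5.66 to 10.06. col-161 was between 3.34 and 4.16 in the daf-16;daf-2;bcl-11 eggs and between 3.30 and 3.76 in eggs labelled daf-2;bcl-11, against 7.08, 5.07, 8.79 and 6.00 in daf-2 eggs. col-98 fell by 2.30 and 2.52 on the log2 scale in the same order of comparisons, col-80 by 2.61 and 2.87, and col-159 by 2.48 and 2.63, though col-80 overlapped with daf-2 eggs in 1 daf-16;daf-2;bcl-11 library and col-159 shares sequence on the same strand with col-160. col-130, col-58 and col-73 were among the 10 largest decreases in the daf-16;daf-2;bcl-11 eggs only, at -2.87, -2.67 and -2.76. In eggs labelled daf-2;bcl-11 their log2 fold changes were -1.71 (adjusted p = 0.070), -1.50 (adjusted p = 0.042) and -2.03 (adjusted p = 0.13, limma), so col-58 alone passed there.

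**Figure D3:**
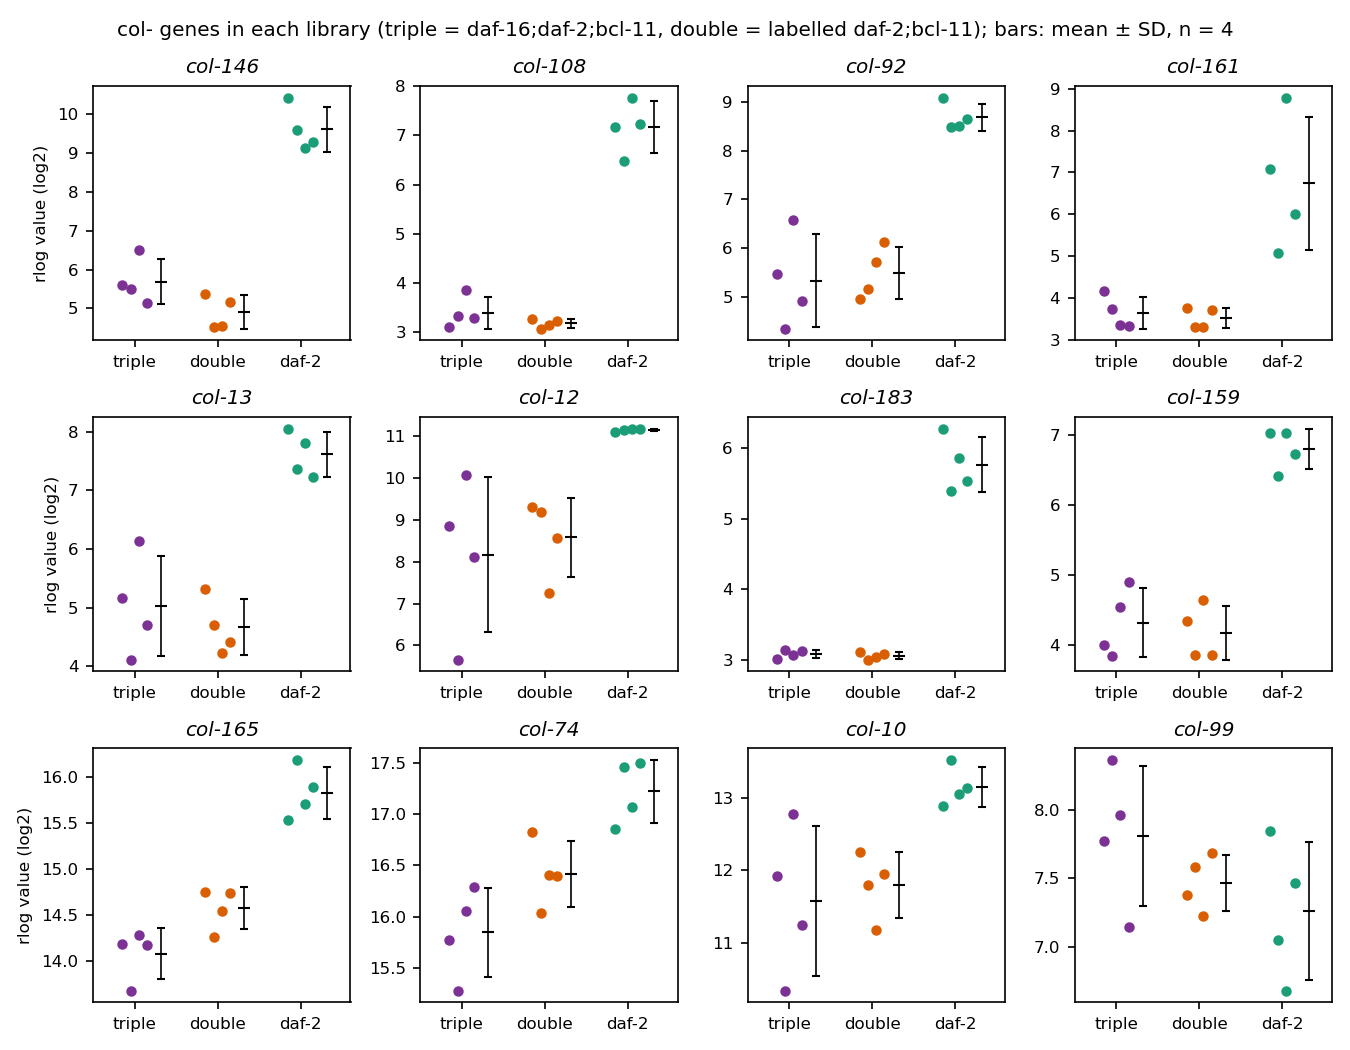
Dots are the rlog values (log2) of 12 col- genes in each of the 4 libraries per genotype, and bars give the mean ± SD (n = 4). daf-2 libraries lie above all libraries of the other genotypes in 11 of the 12 panels, and in the panel of col-99, the transmembrane collagen, the genotypes overlap. col-146, col-108, col-92, col-161, col-13, col-12, col-183 and col-159 were picked from members with non-overlapping libraries, so their separation follows from that choice. Of all 153 members, 44.4% lay wholly below daf-2 eggs in the daf-16;daf-2;bcl-11 eggs and 49.7% in eggs labelled daf-2;bcl-11.

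Most of the abundant members fell. Of the 10 with the highest mean, 9 fell in the daf-16;daf-2;bcl-11 eggs and 8 fell in eggs labelled daf-2;bcl-11. col-165 was at 14.18, 13.67, 14.28 and 14.17 in the daf-16;daf-2;bcl-11 eggs, 14.75, 14.26, 14.54 and 14.74 in eggs labelled daf-2;bcl-11, against 15.53, 16.18, 15.70 and 15.89 in daf-2 eggs. Its log2 fold changes were -1.75 ± 0.16 and -1.25 ± 0.16 (SE, adjusted p = 6.5e-06 and 1.1e-04, limma), and for col-74 they were -1.38 ± 0.21 and -0.81 ± 0.21. col-107, col-117, col-166, col-167 and col-10 fell in both comparisons, with log2 fold changes between -2.03 and -1.35. col-121 fell least of those that passed, at -0.67 and -0.65. col-76 did not pass in either comparison (-0.44 and -0.56), and col-125 passed in the daf-16;daf-2;bcl-11 eggs (-1.66) but not in eggs labelled daf-2;bcl-11 (-0.80, adjusted p = 0.12).

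Among the collagens with a known stage or role, the adult collagen col-7 stood at 3.69, 3.88, 4.85 and 3.86 in the daf-16;daf-2;bcl-11 eggs, 3.73, 3.88, 4.56 and 3.98 in eggs labelled daf-2;bcl-11, against 4.85, 5.04, 5.24 and 5.48 in daf-2 eggs. It fell in both comparisons, at -1.08 ± 0.26 and -1.11 ± 0.26 (SE, adjusted p = 0.0050 and 0.0049, limma). The dauer collagen col-2 was between 4.68 and 5.79 in all 12 libraries, and its log2 fold changes of 0.39 and 0.18 did not pass the test. Of the members tied to the long life of daf-2 animals, col-10 fell in both comparisons (-1.58 and -1.35), col-144 fell in the daf-16;daf-2;bcl-11 eggs (-1.87, adjusted p = 0.024) and missed in eggs labelled daf-2;bcl-11 (-1.59, adjusted p = 0.055), and col-120 passed in neither (-1.10 and -1.16, adjusted p = 0.12 and 0.11). For col-120 a single library, daf-2 replicate 3 at 8.64, lay above the other daf-2 libraries at 5.61, 5.52 and 6.44. col-99, a membrane-spanning collagen and the longest of the named members by exon count, with 17 exons, was between 7.14 and 8.37 in the daf-16;daf-2;bcl-11 eggs, between 7.22 and 7.68 in eggs labelled daf-2;bcl-11 and between 6.68 and 7.85 in daf-2 eggs. Its log2 fold changes of 0.55 and 0.21 did not pass.

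No member rose. The log2 fold change was above 0 in 22 of the 153 members in the daf-16;daf-2;bcl-11 eggs and in 23 in eggs labelled daf-2;bcl-11. In eggs labelled daf-2;bcl-11 the highest value was that of col-135, named after its values were seen, which was at 4.06, 4.17, 4.35 and 4.43 against 3.47, 3.88, 3.82 and 3.55 in daf-2 eggs. It was the one member whose 4 libraries lay wholly above daf-2 eggs (0.654% of members, against 16.7% of all genes). Its log2 fold change was 0.57 ± 0.18 (SE, adjusted p = 0.025, limma), just short of the fold limit. The highest in the daf-16;daf-2;bcl-11 eggs was col-119 at 0.60 ± 0.24 (adjusted p = 0.068), with values of 5.53, 5.31, 5.09 and 4.83 against 4.46, 5.02, 4.29 and 4.60 in daf-2 eggs.

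Members that lie next to each other in the genome were examined as runs. With a gap of at most 10 kb, 50 of the 153 members fell into 21 runs, the largest of 5. In the run of col-92, col-93 and col-94 on chromosome III (10982139 to 10987873) all 3 fell in both comparisons, by 3.36, 1.79 and 2.38 on the log2 scale in the daf-16;daf-2;bcl-11 eggs and by 3.21, 2.03 and 2.05 in eggs labelled daf-2;bcl-11. In the run of col-144, col-145 and col-10 on chromosome V (9159586 to 9165307) the log2 fold changes were -1.87, -2.20 and -1.58 and then -1.59, -1.62 and -1.35, and only col-144 in the second comparison missed the threshold. Other runs were mixed. In the run of 5 on chromosome X (6323488 to 6335221), col-167 fell by 2.03 and 1.45, while col-171 at its far end was not on. col-39 and col-80 on chromosome II fell in both comparisons, and col-79 beside them did not pass. Members of such runs can be similar in sequence, and the pseudoaligner may have divided reads between them, so values within a run are less certain than their spread shows. By chromosome, the median log2 fold change of the members in the daf-16;daf-2;bcl-11 eggs was lowest on III (-1.51, 12 members) and highest on I (-0.57, 20 members). In eggs labelled daf-2;bcl-11 it was lowest on V (-1.35, 31 members) and highest on I (-0.65).

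Several libraries stood apart for col- genes, which was noticed in the data and has no test. A library was compared with the mean of the other 3 of its genotype, and members more than 2 log2 units away were counted. daf-2 replicate 3 was higher by that much in 11 members (7.19%, against 0.143% of all genes), and the largest gap was that of col-49, at 11.19 against 2.14, 2.37 and 3.84 in the other daf-2 libraries. col-175 was at 10.14 there against 3.07, 4.31 and 4.54, col-79 at 9.47 against 3.87, 3.38 and 2.99, and col-38 at 12.68 against 8.91, 9.00 and 9.53. In the 8 libraries of the other genotypes col-49 was between 2.23 and 3.49. The named cuticle collagens, described below, were high in the same library in 9 of 21 cases, led by rol-1 at 11.80 against 2.63, 2.45 and 3.72. Of the 4 adult cuticle markers (col-7, col-19, col-38 and col-62, so members themselves), 3 fell in the daf-16;daf-2;bcl-11 eggs and 2 fell in eggs labelled daf-2;bcl-11. Their mean was 6.21 in daf-2 replicate 3, against 5.23, 5.33 and 6.04 in the other daf-2 libraries. Of these markers, col-38 alone was among the 11 members counted above. Apart from col-38, they stood there at 5.24 for col-7, 1.92 for col-19 and 5.00 for col-62, against 4.85 to 5.48, 1.87 to 2.52 and 5.07 to 6.65 in the other daf-2 libraries. Vitellogenins averaged 5.13 in replicate 3, against 5.86, 5.14 and 6.19 in daf-2 replicates 1, 2 and 4. What set this library apart was not tested.

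Replicate 3 of the eggs labelled daf-2;bcl-11 was higher in 4 members (2.61%, against 0.0478% of all genes), which included col-17 and col-73, which lie in 1 run on chromosome II with col-20 between them. col-20 was not high there, at 1.73. col-17 was at 8.24 in that library against 3.23, 2.89 and 3.06 in the rest of that group, and at 8.66 in daf-2 replicate 3 against 5.13, 4.25 and 4.32 in the other daf-2 libraries. In the daf-16;daf-2;bcl-11 eggs it was between 2.92 and 3.15, with no such library. col-73 had the same 2 high libraries, at 6.79 and 9.66. The batch number 3 is shared by these libraries and by daf-16;daf-2;bcl-11 replicate 3, where col-17 and col-73 stood at 3.02 and 3.45. What set the high libraries apart was not tested.

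In the daf-16;daf-2;bcl-11 eggs, replicate 2 was lower by more than 2 log2 units in 14 members (9.15%, against 0.159% of all genes), and replicate 3 was higher in 9 (5.88%, against 0.115%). The 14 included the abundant col-117, col-166 and col-167 and also col-12, col-94, col-130, col-144, col-147, col-160 and col-168. Their mean was 9.30, 7.01, 10.60 and 9.01 in the 4 daf-16;daf-2;bcl-11 libraries, 10.08, 9.52, 8.58 and 9.53 in those labelled daf-2;bcl-11 and 11.15, 11.23, 10.98 and 11.29 in the daf-2 libraries. Within eggs labelled daf-2;bcl-11, replicate 3 was the lowest library in 13 of them and replicate 1 the highest in 13. The 14 genes were measured in the same libraries, so they are not separate repeats of that order. No share of all members or of all genes is given for it. daf-2 libraries were close together. Late embryonic markers, which were unlike by tissue, averaged 14.10 in daf-16;daf-2;bcl-11 replicate 2. They averaged 13.66 and 13.39 in replicates 1 and 4 and 14.30 in replicate 3. Named cuticle collagens were highest of the 4 in replicate 2, at a mean of 9.40. Whether embryo stage had a part in the low collagen values of replicate 2 was not tested.

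**Figure D4:**
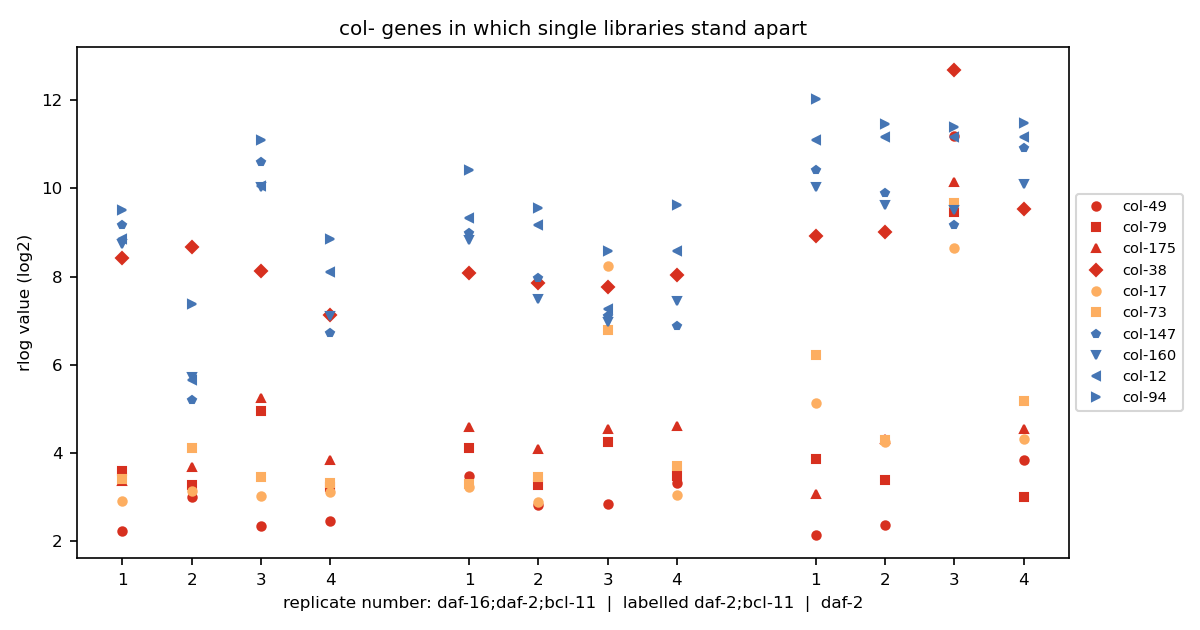
rlog values (y axis, log2) of 10 col- genes in the 12 libraries, by genotype and replicate number (x axis). Red points (col-49, col-79, col-175, col-38) are far above their usual level in daf-2 replicate 3, orange points (col-17, col-73) in replicate 3 of both daf-2 and labelled daf-2;bcl-11 eggs, and blue points (col-147, col-160, col-12, col-94) are lowest in daf-16;daf-2;bcl-11 replicate 2.

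Lowered members were counted again without these libraries, with no share of all genes set beside the counts. With daf-2 replicate 3 and replicate 3 of the eggs labelled daf-2;bcl-11 both left out, 76 members fell in the daf-16;daf-2;bcl-11 eggs and 50 fell in eggs labelled daf-2;bcl-11, with 0 higher in both. Without daf-16;daf-2;bcl-11 replicate 2, 71 fell in that genotype, and without its replicate 3, 80 did and 1, col-45, rose. For single genes it was otherwise: without daf-2 replicate 3 the log2 fold changes of col-79 turned to 0.34 and 0.37 and those of col-175 to 0.060 and 0.49, though neither gene had passed the test with it.

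Named cuticle collagens, which are col-like genes known by their mutant body shapes (dumpy, roller, squat, blister and long), were set beside the col- genes. Of 22 listed, 21 were measured, and 2 rose and 8 fell in the daf-16;daf-2;bcl-11 eggs, while 2 rose and 4 fell in eggs labelled daf-2;bcl-11. Their median log2 fold changes were -0.67 and -0.49. The members that rose were dpy-8 and dpy-9 in both comparisons: dpy-8 was at 4.99, 6.57, 6.37 and 6.34 in the daf-16;daf-2;bcl-11 eggs, 6.68, 6.40, 6.60 and 6.57 in eggs labelled daf-2;bcl-11, against 4.68, 5.03, 5.39 and 4.27 in daf-2 eggs, with log2 fold changes of 1.22 and 1.72. lon-3, a collagen that affects body length, fell by 2.19 and 1.78, sqt-3 by 0.73 and 0.68, dpy-10 by 0.67 and 0.63, and dpy-2 by 0.71 and 0.73. dpy-4, dpy-5, dpy-13 and sqt-2 fell in the daf-16;daf-2;bcl-11 eggs (by 3.00, 2.74, 2.26 and 1.32), and in eggs labelled daf-2;bcl-11 their log2 fold changes of -1.87, -1.74, -1.64 and -0.84 did not pass. dpy-4 in those eggs was at 8.33 in replicate 3 against 4.66, 4.64 and 5.54 in the other libraries. With the replicate number as a block, 8 named cuticle collagens fell in eggs labelled daf-2;bcl-11, and after centring 1 did there and 4 did in the daf-16;daf-2;bcl-11 eggs. With replicate 3 of both daf-2 and labelled daf-2;bcl-11 eggs left out, 6 fell in each comparison and 1 rose in the daf-16;daf-2;bcl-11 eggs.

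Enzymes and export factors of collagen were set beside the col- genes as well. Of 16 genes for the modification, secretion and cross-linking of collagen, 1 rose and 4 fell in the daf-16;daf-2;bcl-11 eggs and 0 rose and 2 fell in eggs labelled daf-2;bcl-11, with median log2 fold changes of 0.24 and 0.16, so the median and the balance of calls differed in sign. The prolyl 4-hydroxylase genes dpy-18 and phy-2 were at 0.33 and 0.25 in the daf-16;daf-2;bcl-11 eggs and at 0.19 and 0.35 in eggs labelled daf-2;bcl-11, and none of these passed. tmem-39, which takes part in the export of collagen from the endoplasmic reticulum, rose in the daf-16;daf-2;bcl-11 eggs by 0.64 ± 0.10 (SE, adjusted p = 2.9e-04, limma) and was at 0.58 in eggs labelled daf-2;bcl-11, under the fold limit. The 2 that fell in both comparisons work outside the cell: dpy-31, the protease that trims the C-terminus of cuticle collagens (-0.67 and -0.65), and mlt-7, a peroxidase of cuticle cross-linking (-0.63 and -0.85). tsp-15 and doxa-1, partners of the dual oxidase that supplies that peroxidase, fell in the daf-16;daf-2;bcl-11 eggs (-0.87 and -0.65) and did not pass in eggs labelled daf-2;bcl-11 (-0.55 and -0.49). When libraries were centred on their medians, none of the 16 fell, and 9 and 8 rose in these comparisons. Centring moved the median of all genes to 0.52 and 0.41 in the same order. No share of all genes is given on that scale, so these and the other list counts after centring have no background.

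Collagens of the basement membrane and other collagens outside the cuticle fell too, at 3 of 4 in each comparison. emb-9 and let-2, chains of type IV collagen, fell by 0.88 and 0.87 on the log2 scale in the daf-16;daf-2;bcl-11 eggs and by 0.78 each in eggs labelled daf-2;bcl-11, and cle-1, the type XV/XVIII collagen, by 0.89 and 1.12. Their medians of -0.88 and -0.78 are to be read beside those of all 153 col- genes, -1.02 and -0.81. The 135 col- genes that were on had medians of -1.19 and -0.95, but 10 of them were on in daf-2 eggs alone. After centring, 0 and 1 of the 4 fell. Of 12 regulators of epidermal and cuticle genes, 2 rose and 1 fell in the daf-16;daf-2;bcl-11 eggs and 0 rose and 2 fell in eggs labelled daf-2;bcl-11. Of all genes, 6.38% and 7.0% were called higher in the same order. grh-1, the Grainyhead factor of epidermal barrier genes, fell in both (-1.19 and -1.003). nhr-23, a nuclear receptor of the moulting cycle, fell in eggs labelled daf-2;bcl-11 (-0.72, adjusted p = 0.023) and was at -0.42 in the daf-16;daf-2;bcl-11 eggs (adjusted p = 0.17, both limma). elt-1, the GATA factor that specifies the epidermis, and nhr-25 rose in the daf-16;daf-2;bcl-11 eggs (0.69 and 0.59) and were at 0.56 and 0.36 in eggs labelled daf-2;bcl-11. After centring, 5 regulators rose in each comparison, and 1 and 0 fell.

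**Figure D5:**
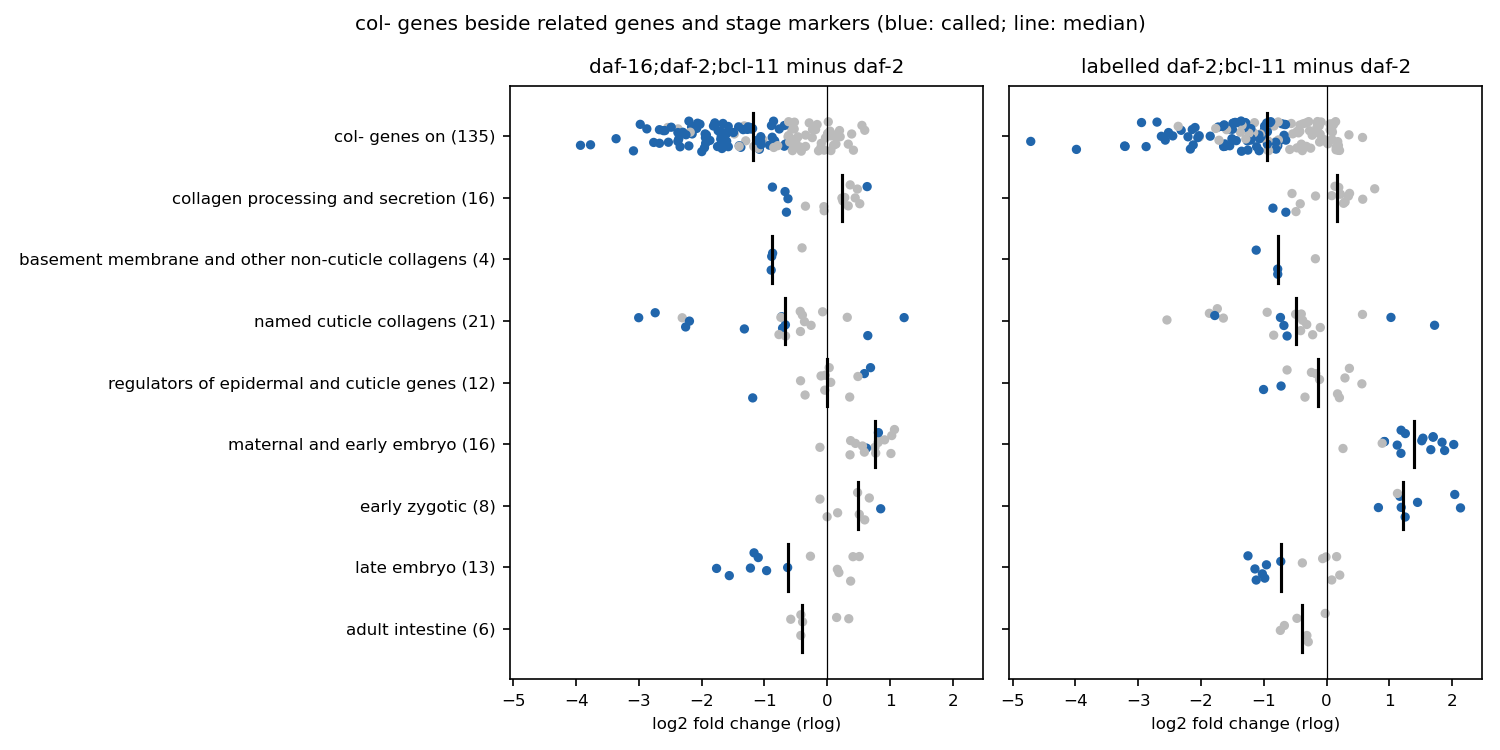
Points are the log2 fold changes (x axis) of the 135 col- genes that were on and of the genes of each related list (rows, number of genes in brackets), against daf-2 eggs, for daf-16;daf-2;bcl-11 eggs on the left and eggs labelled daf-2;bcl-11 on the right; blue points passed the test and black lines are medians. The adult cuticle list, which is made of col- genes, is not drawn. Among the rows drawn, the col- genes have the lowest median in both panels (-1.19 and -0.95), collagen processing genes have medians of 0.24 and 0.16, and the medians of maternal and early zygotic markers lie to the right of 0 in both panels. Of the 135 col- genes drawn, 10 were on in daf-2 eggs alone, and the other rows had no such filter. All 153 col- genes had medians of -1.02 and -0.81.

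The last comparison asked whether collagen genes differed between daf-16;daf-2;bcl-11 eggs and eggs labelled daf-2;bcl-11. None of the 153 members passed the limma test there, and of all 25122 genes 3 did (0.0119%), with 0.00796% higher and 0.00398% lower. At an unadjusted p under 0.05, 3 members were higher and 12 were lower in the daf-16;daf-2;bcl-11 eggs, or 15 together (9.8%, against 6.03% of all genes). Within batches, 15 members were lower in 4 of 4 (9.8%, against 5.15% of all genes). The median log2 fold change of the members was -0.08, and they ran from -1.30 to 0.78. In 4 members, col-61, col-126, col-131 and col-173, named after their values were seen, all daf-16;daf-2;bcl-11 libraries lay below all libraries labelled daf-2;bcl-11 (2.61%, against 1.19% of all genes), and in 2, col-81 and col-171, they lay above (1.31%, against 3.13% of all genes). For col-131 the values were 9.54, 9.74, 10.15 and 9.98 in the daf-16;daf-2;bcl-11 eggs and 10.26, 10.24, 10.45 and 10.55 in eggs labelled daf-2;bcl-11, a log2 fold change of -0.52 ± 0.18 (SE, adjusted p = 0.79). The daf-16 transcript was low in both groups, as given above. Exact permutation tests of single members can go no lower than 0.0286 with 4 libraries against 4, and a p above the threshold does not show that these genotypes express collagens alike.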

How the data were processed

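Total RNA (5 ng) of 12 egg samples was made into non-stranded Smart-seq2 libraries. The authors demultiplexed the reads with bcl2fastq2 v2.20, quantified them with Kallisto v048.0 against Ensembl 109 (WBcel235), and deposited rlog values on the log2 scale for 25122 genes; no depth or counts were used here. Symbols were matched for 23471 gene identifiers, and positions came from the Ensembl 115 annotation of WBcel235.

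All 12 libraries entered one limma 3.58.1 model (R 4.3.3; lmFit, contrasts.fit, eBayes with a trend, no block) with Benjamini-Hochberg adjustment over 25122 genes, and a gene was called at an adjusted p under 0.05 and a fold change beyond 1.5. On simulated data of this size (25122 genes, for daf-2 eggs and those labelled daf-2;bcl-11) 91 of 100 changes of 2 log2 units and 57 of 100 of 1 log2 unit were recovered. Only genes with a mean above log2(10) were changed, with normal noise. Far fewer genes changed there than the 22.0% called in the data, so these rates do not give the sensitivity of the test here. The members and gene lists were chosen with earlier results of these data known. Named in the text are the targeted genes, the 10 members with the highest mean, up to 10 called members per direction and comparison with non-overlapping libraries and the largest changes, members of known stage or role, those nearest the on line, and called list genes; col- genes outside this rule were named after their values were seen. The labels give the replicate number as a batch, so it pairs libraries; deviations of same-numbered libraries correlated at a mean r of 0.03 between labelled daf-2;bcl-11 libraries and daf-2 libraries, 0.21 between daf-16;daf-2;bcl-11 libraries and daf-2 libraries and -0.05 for the remaining pair. Whether replicates came from separate cultures is not stated, so p-values measure only the spread between these libraries. Alternatives covered the eBayes trend, samples in the fit, filter, scaling, block, fold limit and leaving out each library. Sequences were not analysed here.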

Additional observations from a re-analysis of the deposited data

Results flagged for a closer look

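Single libraries lay far from the other 3 of their genotype by Dixon's test in 38 of the 459 gene and genotype pairs of the 153 members, where chance alone flags about 1 in 20. Among the genes named here 18 pairs were of this kind, and since some of these genes were named because a single library stood out, that number is not to be set against chance. daf-2 replicate 3 was the distant library for col-38 at 12.68, col-79 at 9.47 and dpy-13 at 9.65 on the high side, and for col-39 at 9.72 and col-125 at 13.58 on the low side. In eggs labelled daf-2;bcl-11, replicate 3 was high for col-17 at 8.24 and col-73 at 6.79, replicate 2 was low for col-175 at 4.09, and replicate 4 was low for mlt-7 at 8.70. In the daf-16;daf-2;bcl-11 eggs, replicate 3 was high for col-7 at 4.85 and doxa-1 at 8.25, replicate 2 was high for col-73 at 4.11 and tmem-39 at 12.08, replicate 1 was low for dpy-8 at 4.99, and replicate 1 was high for col-19 at 2.08, a gene near the bottom of the table in every library. Among the remaining daf-2 libraries, replicate 1 was high for col-94 at 12.04, replicate 2 was high for grh-1 at 8.85, and replicate 4 was low for lon-3 at 10.10. The source of these differences was not tested.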

How the results depend on the processing

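The counts of lowered and of expressed col- genes stayed within 1.5 times the reported values under the alternatives run. Shares of all genes under these alternatives are not given here, so the counts below are not set against a background. When libraries were left out in turn, 70 to 80 fell in the daf-16;daf-2;bcl-11 eggs (reported 76) and 50 to 74 in eggs labelled daf-2;bcl-11 (reported 68), and 133 to 135 were on. With the replicate number as a block, 75 and 72 fell and 0 rose, and 74 of the 76 and 67 of the 68 reported calls were among them; beside the maternal markers and the named cuticle collagens given above, the block took collagen processing genes higher in eggs labelled daf-2;bcl-11 to 1 (reported 0). After centring on the median, 57 of the 76 and 45 of the 68 were still called. The count of raised members, reported as 0 in both comparisons, was 16 in the daf-16;daf-2;bcl-11 eggs and 7 in eggs labelled daf-2;bcl-11 after centring, 4 and 1 after quantile normalization, 1 in the daf-16;daf-2;bcl-11 eggs with a filter at a mean of log2(10), 1 in eggs labelled daf-2;bcl-11 with no fold limit, and 0 to 2 in each when libraries were left out in turn. It was above 0 in the daf-16;daf-2;bcl-11 eggs without daf-2 replicate 2, labelled daf-2;bcl-11 replicate 1 or that genotype's own replicate 3 or 4, and in eggs labelled daf-2;bcl-11 without daf-2 replicate 2 or 3 or their own replicate 1 or 2. Between the daf-16;daf-2;bcl-11 eggs and eggs labelled daf-2;bcl-11, 0 members were called under any alternative run.

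Some single log2 fold changes changed sign. Centring gave 0.36 and 0.33 for col-19 in the same order of comparisons, and 0.098 for col-76 and 0.11 for nhr-23 in the daf-16;daf-2;bcl-11 eggs. When libraries were left out in turn, the daf-16;daf-2;bcl-11 eggs gave -1.82 to 0.34 for col-79 and -2.29 to 0.060 for col-175. In eggs labelled daf-2;bcl-11 the ranges were -0.18 to 0.044 for col-19, -2.68 to 0.34 for col-49, -1.79 to 0.37 for col-79, -1.87 to 0.49 for col-175 and -0.13 to 0.22 for col-119. Leaving out replicate 3 of both daf-2 and labelled daf-2;bcl-11 eggs, an alternative chosen after seeing the data, gave 0.34 for col-79 and 0.060 for col-175 in the daf-16;daf-2;bcl-11 eggs, and 0.43 for col-49, 0.21 for col-79 and 0.46 for col-175 in the other comparison. None of these had passed the test as reported, and the causes were not tested. Depth is unknown, so what it limits cannot be given, and rlog shrinkage understates the changes of members near the on line.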
